A study of Sus scrofa with 9 samples.

Results

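The insulin-like growth factor (IGF) ligands, their receptors and their binding proteins were examined in porcine valvular interstitial cells (PVICs). The members are the 10 gene rows with the symbols IGF1, IGF2, IGF1R, INSR, IGFBP2, IGFBP3, IGFBP4, IGFBP5, IGFBP6 and IGFBP7, of 19535 gene rows in all. They were taken by symbol, and all 10 passed the filter on low counts.

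PVICs are primary cells of the pig aortic valve leaflet. They came from wild-type pigs aged 4 to 5 months and were given 3 days of treatment per the labels. Control cells were kept in DMEM. The OIM group received osteogenic medium, to which insulin (1e-07 mol/L), ascorbic acid (50 µg/mL) and sodium dihydrogen phosphate (2 mmol/L) had been added. The bFGF group received the same OIM with 50 ng/mL basic fibroblast growth factor (bFGF). OIM was used to bring on calcium deposition and bFGF to hold it back. Each of the 3 groups had 3 libraries. The control therefore lacked the added insulin that both other groups had, and insulin is itself a ligand of INSR. The sources do not say whether the 3 libraries of a group came from separate animals or cultures, so p-values measure only the spread between these samples, which may be technical.

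IGF1 and IGF2 are secreted ligands that signal through IGF1R, a receptor tyrosine kinase, and can also act through INSR, the insulin receptor. The binding proteins IGFBP2 to IGFBP6 hold the ligands outside the cell with high affinity. Depending on the protein and the tissue they keep the ligand from its receptor, prolong its life or carry it to the cell surface. IGFBP7 binds IGFs weakly and binds insulin. Proteases that cut the binding proteins set the ligands free. Inside the cell, IRS adaptors, PI3K and AKT pass the signal on, and AKT keeps the FOXO transcription factors out of the nucleus. IGF signalling is known for its part in the growth, survival and differentiation of mesenchymal cells, bone-forming cells included.

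The deposited gene counts summed to 57075793 to 64723837 per control library, 57682710 to 67371523 per OIM library and 46773376 to 48270827 per bFGF library, so every bFGF library was shallower than every other. Levels are given in CPM, which are counts scaled to a common library total after TMM, and levels of different genes are compared only as CPM per kb of exon. A gene was called changed at an adjusted p of at most 0.05 in edgeR's quasi-likelihood test if its log2 fold change was also 0.5 or more in size. Of the interstitial cell markers, 9 of 9 were detected in every library. Their summed level ran from 63355 to 68571 CPM for control, 60113 to 63296 for OIM and 36415 to 36768 for bFGF. Most of this sum was collagen mRNA, with COL1A1 at 23877 to 26113 CPM in OIM and 9734 to 10139 in bFGF, and 6 of the 9 markers were lower in every bFGF library than in every OIM library. Among these 6 were DCN (208 to 221 CPM in bFGF, 413 to 431 in OIM), THY1 and DDR2. VIM went from 5498 to 6066 CPM in OIM to 8907 to 9068 in bFGF, PDGFRB was slightly higher in bFGF (349 to 372 CPM, with 323 to 336 in OIM), and LUM overlapped. The 7 valve endothelial markers summed to 70.6 to 73.0, 84.7 to 86.3 and 164 to 175 CPM in control, OIM and bFGF. Most of that was ERG, at 66.2 to 67.8 CPM in OIM and 134 to 143 CPM in bFGF. Of these 7 markers, 6 were higher in every bFGF library than in every OIM library, among them PECAM1 (19.6 to 21.7 CPM in bFGF, 10.6 to 12.7 in OIM) and CDH5 (7.42 to 8.98 CPM in bFGF, 5.36 to 6.42 in OIM). The other, VWF, stayed under 0.59 CPM in every library. The 6 leukocyte markers summed to at most 15.7 CPM in any library and to 7.90 to 8.73 CPM in bFGF, with CD3E at 0 counts throughout. The 5 smooth muscle markers summed to 709 to 730, 741 to 1081 and 166 to 174 CPM. These marker sums moved with the bFGF group, and their part in the changes below was not tested. In bulk RNA, fewer cells of a type and less RNA per cell cannot be told apart.

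In bFGF against OIM alone, 9 of the 10 members fell and 1, IGFBP6, rose. In the same comparison 36.2% of all genes tested were called, 17.7% higher and 18.4% lower. The median log2 fold change of the members was -0.996, against -0.0029 over all genes tested. Against control, OIM gave 1 call among the members, IGFBP3, which fell, where 2.35% of all genes were called, 1.49% higher and 0.864% lower. The median over the members was 0.05, against -0.0019 over all genes. Between bFGF and control, 1 member rose and 8 fell, where 39.0% of all genes were called, 18.9% higher and 20.0% lower. The medians were -1.45 for the members and -0.02 for all genes. The libraries of all 10 members lay apart by group in bFGF against OIM and in bFGF against control, as did those of 72.1% and 73.7% of all genes. In OIM against control 3 members lay wholly higher and 3 wholly lower, where 28.7% of all genes did not overlap. The comparisons share libraries (OIM or control or bFGF), so their values are set side by side and are not separate evidence.

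**Figure D1:**
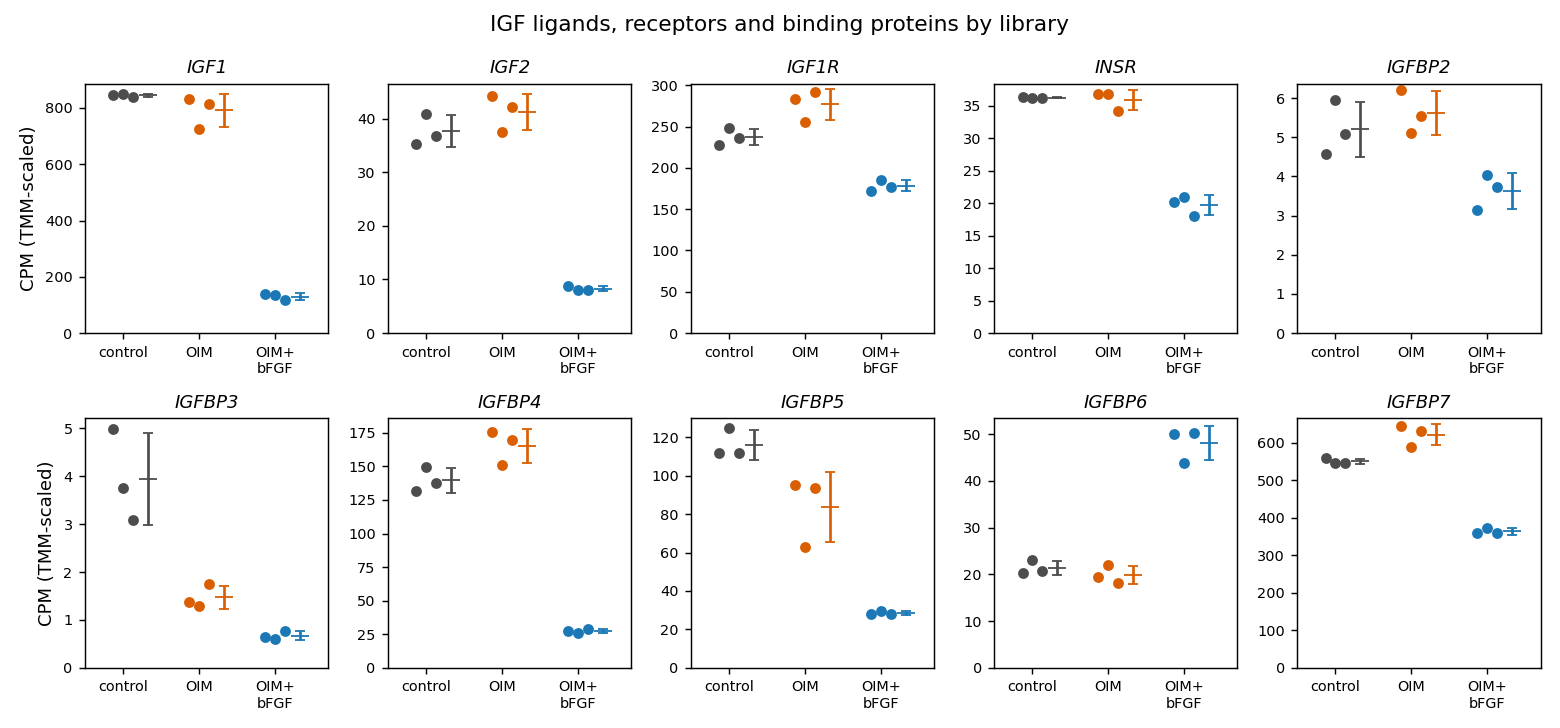
Level of each of the 10 members in each library, in TMM-scaled CPM on a linear axis that starts at 0, with control in grey, OIM in orange and OIM with bFGF in blue. Points are libraries, and the bar beside them is the mean ± SD (n = 3 per group). In 9 panels every bFGF point lies below every OIM point, and in the IGFBP6 panel every bFGF point lies above.

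IGF1, the ligand with the higher level, stood at 846, 849 and 839 CPM in the control libraries, 833, 725 and 815 in OIM and 138, 134 and 117 in bFGF. The OIM libraries lay just under those of control, and all bFGF libraries were far below both. The level fell by 2.61 on the log2 scale in bFGF against OIM (SE 0.057, edgeR adjusted p = 2.57e-18), which is 6.11-fold lower. OIM and control differed by -0.09 on the log2 scale (SE 0.053, edgeR adjusted p = 0.273), which was not called. Against control the bFGF value was -2.70 (edgeR adjusted p = 1.28e-18).

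IGF2, the second ligand, was at 35.3, 40.9 and 36.8 CPM in control libraries, 44.2, 37.5 and 42.1 in OIM and 8.78, 8.05 and 8.002 in bFGF. The control and OIM ranges overlapped, and the bFGF libraries lay well under them. IGF2 fell by 2.32 on the log2 scale in bFGF against OIM (SE 0.079, edgeR adjusted p = 1.75e-15), a 4.98-fold lower level. For OIM against control the log2 fold change was 0.13 (edgeR adjusted p = 0.256), and for bFGF against control it was -2.19 (edgeR adjusted p = 3.50e-15).

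Per kb of exon, IGF1 exceeded IGF2 in every library. The ratio was 12.7 to 14.7 in control, 11.5 to 11.8 in OIM and 8.92 to 10.2 in bFGF, with no overlap between groups. The mean ratios were 13.8, 11.7 and 9.57. A two-sided exact permutation test gave p = 0.1 for each pair of groups, the smallest p that this test allows with 3 against 3 libraries, so the test could not reach 0.05.

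IGF1R, the signalling receptor for both ligands, was at 228, 248 and 236 CPM in control libraries, 284, 255 and 291 in OIM and 173, 185 and 177 in bFGF. All OIM libraries were above all control libraries, and all bFGF libraries were below both groups. The step from OIM to bFGF was called at -0.63 on the log2 scale (SE 0.047, edgeR adjusted p = 2.82e-10). The difference of OIM from control was 0.22 (SE 0.047, edgeR adjusted p = 0.00287) and that of bFGF from control was -0.41 (edgeR adjusted p = 1.61e-07). Both passed the limit on p and missed the limit on fold. Scaled by library totals alone, IGF1R differed by -0.41 between bFGF and OIM and was not called.

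INSR, the insulin receptor, was at 36.3, 36.1 and 36.2 CPM in control libraries, 36.7, 36.9 and 34.1 in OIM and 20.1, 21.0 and 18.1 in bFGF. Control and OIM overlapped, and bFGF was lower in each library. INSR fell by 0.86 on the log2 scale from OIM to bFGF (SE 0.064, edgeR adjusted p = 2.40e-10), a 1.82-fold lower level. For bFGF against control the value was -0.87 (edgeR adjusted p = 1.72e-10), and for OIM against control it was -0.01 (edgeR adjusted p = 0.933).

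The ratio of IGF1R to INSR per kb of exon was 6.54 to 7.46 in bFGF, 5.28 to 6.51 in OIM and 4.79 to 5.23 in control. The group means were 6.91, 5.89 and 5.00, with no overlap between groups. The exact permutation p was again 0.1 for each pair of groups.

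**Figure D2:**
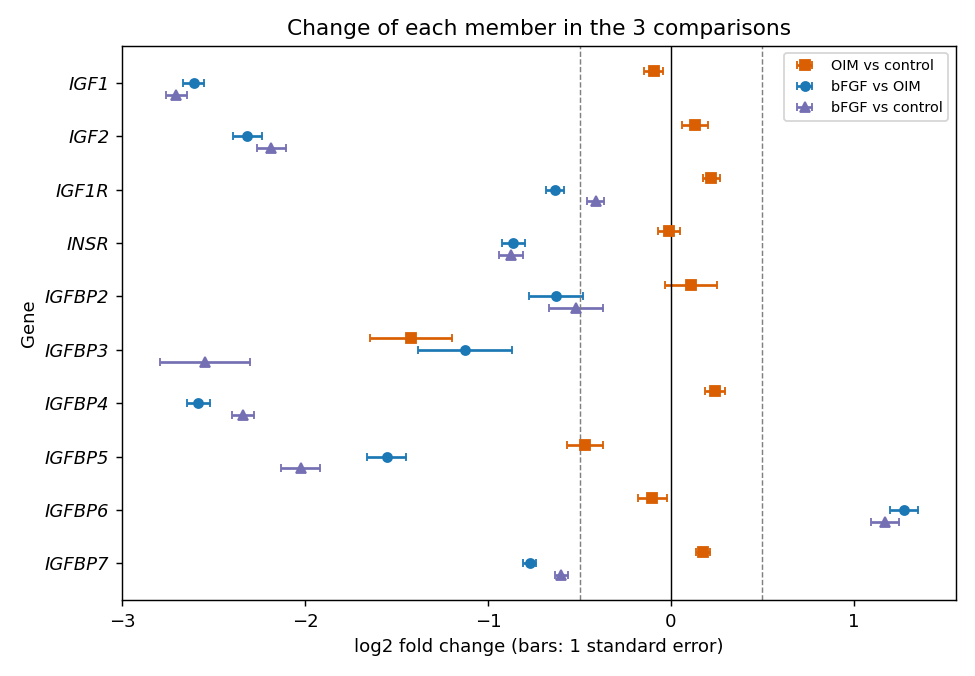
Log2 fold change of each member in OIM against control (orange squares), bFGF against OIM (blue circles) and bFGF against control (purple triangles), from edgeR, with bars of 1 standard error. Dashed lines mark the limit of 0.5 on the absolute log2 fold change. IGF1, IGF2 and IGFBP4 have the largest falls from OIM to bFGF (-2.61, -2.32 and -2.58), IGFBP6 alone lies to the right at 1.27, and IGFBP3 is the one orange square beyond a limit, at -1.42.

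IGFBP4, a binding protein best known for holding IGFs away from the receptor, was at 132, 150 and 138 CPM in control libraries, 176, 151 and 169 in OIM and 27.6, 26.2 and 28.9 in bFGF. The bFGF libraries lay far below the rest, while the lowest OIM library was barely above the highest control library. The fall from OIM to bFGF was -2.58 on the log2 scale (SE 0.061, edgeR adjusted p = 7.83e-18), which is 5.997-fold. It was -2.34 against control (edgeR adjusted p = 2.50e-17). For OIM against control the value was 0.24 (edgeR adjusted p = 0.00478), under the fold limit.

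IGFBP5, a binding protein that attaches to extracellular matrix and is abundant in bone, was at 112, 125 and 112 CPM in control libraries, 95.2, 62.8 and 93.6 in OIM and 28.2, 29.5 and 27.9 in bFGF. The 3 groups did not overlap, and OIM replicate 2 stood apart from the other 2 OIM libraries. IGFBP5 fell by 1.55 on the log2 scale from OIM to bFGF (SE 0.106, edgeR adjusted p = 7.26e-11) and stood at -2.02 in bFGF against control (edgeR adjusted p = 1.02e-12). OIM against control gave -0.47 (SE 0.099, edgeR adjusted p = 0.00275), just inside the fold limit and so not called.

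That value depended on single libraries. Without OIM replicate 2 the log2 fold change of IGFBP5 for OIM against control was -0.30 (edgeR adjusted p = 5.62e-05). Without OIM replicate 1 it was -0.57 and without OIM replicate 3 it was -0.56, and both were called. In OIM replicate 2 the smooth muscle marker MYH11 was at 182 CPM, against 325 and 337 CPM in the other OIM libraries. That library also had the lowest OIM level of 8 members, with INSR and IGFBP6 as the exceptions, and the most counts of any library. The part of this in the IGFBP5 value was not tested.

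IGFBP3, the main carrier of IGFs in blood, was scarce in these cells, with 272, 228 and 185 counts in control, 75, 84 and 100 counts in OIM and 35, 31 and 40 counts in bFGF. In CPM these were 4.99, 3.76 and 3.10, then 1.38, 1.29 and 1.75, then 0.653, 0.596 and 0.769. The groups were in steps with no overlap, and the control libraries spread the most. IGFBP3 fell by 1.42 on the log2 scale in OIM against control (SE 0.22, edgeR adjusted p = 0.000190), a 2.68-fold lower level. It was lower again by 1.13 in bFGF against OIM (SE 0.26, edgeR adjusted p = 0.000657). Over both steps it was 5.85-fold lower, at -2.55 (SE 0.25, edgeR adjusted p = 1.38e-08).

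IGFBP2, another soluble binding protein, was also scarce, at 4.57, 5.96 and 5.09 CPM in control libraries, 6.22, 5.11 and 5.55 in OIM and 3.13, 4.04 and 3.73 in bFGF. Control and OIM overlapped, and bFGF lay below both. The change from OIM to bFGF was -0.63 (SE 0.146, edgeR adjusted p = 0.000788), and with library totals alone it was -0.41 and not called. Against control it was -0.52 (edgeR adjusted p = 0.00376), a call that was lost without control replicate 2 (-0.41) and without bFGF replicate 1 (-0.42). With library totals alone it was -0.29.

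IGFBP7, which was the most abundant member per kb of exon in each group, was at 558, 547 and 547 CPM in control libraries, 644, 589 and 630 in OIM and 359, 374 and 358 in bFGF. OIM lay above control by a small step, and bFGF lay below both. IGFBP7 fell by 0.77 on the log2 scale from OIM to bFGF (SE 0.037, edgeR adjusted p = 2.63e-13). It was lower by 0.60 in bFGF than in control (edgeR adjusted p = 1.20e-11), or by 0.37 and not called with library totals alone. OIM against control gave 0.17 (edgeR adjusted p = 0.00261), which passed on p only.

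IGFBP6, known for binding IGF2 in preference to IGF1, was the exception. Its level was 20.3, 23.1 and 20.7 CPM in control libraries, 19.5, 21.9 and 18.2 in OIM and 50.1, 43.9 and 50.2 in bFGF. Control and OIM overlapped, and the lowest bFGF library was far above every other. IGFBP6 rose by 1.27 on the log2 scale from OIM to bFGF (SE 0.076, edgeR adjusted p = 9.48e-12), which is 2.42-fold, and by 1.17 against control (edgeR adjusted p = 2.84e-11), or 2.25-fold. The value for OIM against control was -0.10 (edgeR adjusted p = 0.450).

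Without the fold limit, OIM against control changed 5 members, of which IGF1R, IGFBP4 and IGFBP7 were higher and IGFBP3 and IGFBP5 lower. By that rule 13.6% of all genes passed, 7.69% higher and 5.87% lower. Their log2 fold changes other than that of IGFBP3 were between -0.47 and 0.24.

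The binding proteins were then compared with one another as CPM per kb of exon, taking the exons annotated in Sscrofa11.1. These levels hold only if the authors counted over the same gene models. IGFBP4 and IGFBP5 have short models of 780 and 967 bases, and the IGFBP4 model is all coding sequence, so reads from the rest of such a transcript may not have been counted. Summed over IGFBP2 to IGFBP7, the level was 812 ± 17.7 in control, 872 ± 59.8 in OIM and 424 ± 4.93 in bFGF (mean ± SD, n = 3). The sum was 2.05-fold lower in bFGF than in OIM, with no overlap (two-sided exact permutation p = 0.1, the smallest possible). OIM and control overlapped (exact permutation p = 0.2). IGFBP7, which binds IGFs weakly, made up most of this sum in each group. The sum is therefore not a measure of the high-affinity binding proteins alone.

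The make-up of this sum changed as well. IGFBP7 took 60.6% ± 1.72 of it in control, 63.7% ± 1.53 in OIM and 76.5% ± 0.959 in bFGF (SD, n = 3). IGFBP4 went from 22.03% ± 1.03 and 24.3% ± 0.233 to 8.33% ± 0.482. IGFBP6, at 1.74% ± 0.0852 and 1.52% ± 0.247 in control and OIM, held 7.49% ± 0.647 in bFGF. In no library of the bFGF group did a share of these 3 proteins overlap with OIM.

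IGFBP5 held 14.8%, 9.88% and 6.95% of the sum in control, OIM and bFGF, and these ranges did not overlap either. The share of IGFBP3 was 0.442% in control, 0.153% in OIM and 0.144% in bFGF (exact permutation p = 0.1 for OIM against control and 0.6 for bFGF against OIM, in a test that could not reach 0.05).

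**Figure D3:**
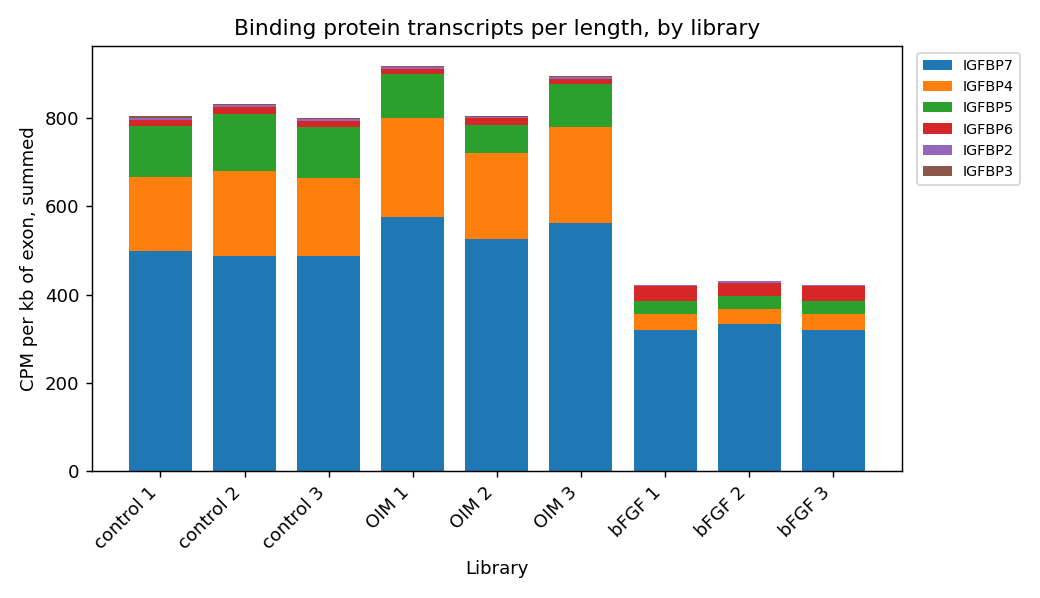
Summed level of IGFBP2 to IGFBP7 in each of the 9 libraries, in CPM per kb of exon on a linear axis from 0, with 1 colour per gene. The 3 bFGF bars reach 421 to 430, against 804 to 918 in OIM, and within them the IGFBP4 segment is smaller and the IGFBP6 segment larger.

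On the same per-length scale the 10 members were ranked in each group. In control the order was IGFBP7 (492 CPM per kb), IGFBP4 (179), IGFBP5 (120), IGF1 (70.6), IGF1R (19.2), IGFBP6 (14.1), IGF2 (5.14), INSR (3.84), IGFBP2 (3.76) and IGFBP3 (3.59). The last 3 overlapped and have no order beyond their spread. OIM kept the order of the leading members, at 555 for IGFBP7 and 212 for IGFBP4. There IGFBP5 (86.7) and IGF1 (66.1) overlapped, as did IGFBP2 (4.06) and INSR (3.81), and IGFBP3 came last at 1.34.

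In bFGF the order was IGFBP7 (325 CPM per kb), IGFBP4 (35.3), IGFBP6 (31.8), IGFBP5 (29.5), IGF1R (14.4), IGF1 (10.8), IGFBP2 (2.62), INSR (2.096), IGF2 (1.13) and IGFBP3 (0.611). IGFBP6 and IGFBP5 overlapped. IGF1R thus stood above IGF1 in bFGF and below it in control and OIM. With the length of the longest transcript in place of all exons, IGF1 and IGF1R changed places in bFGF, and so did IGFBP5 and IGF1 in OIM, so neither order is firm.

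All members lie on different stretches of Sscrofa11.1, but several have close neighbours. IGF1 (chromosome 5, 81762027 to 81909253, plus strand) and IGFBP6 (chromosome 5, 18352884 to 18357225, plus strand) share a chromosome without being near each other. IGFBP2 (chromosome 15, 118822092 to 118850985, plus strand) and IGFBP5 (chromosome 15, 118861816 to 118877787, minus strand) point towards each other with 10830 bases between them. IGF2 (chromosome 2, 1469183 to 1496417, minus strand) lies 424 bases from INS, the insulin gene, on the same strand. IGFBP3 (chromosome 18, 50002921 to 50009425, plus strand) lies 9061 bases from IGFBP1. INS and IGFBP1 had 0 counts in all 9 libraries, which allows a level of up to 0.0460 to 0.0577 CPM per library (a limit of 3 counts, counting error only).

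The other members are IGF1R (chromosome 1, 137383623 to 137691038, minus strand), INSR (chromosome 2, 71797209 to 71939923, plus strand), IGFBP4 (chromosome 12, 21966524 to 21980043, minus strand) and IGFBP7 (chromosome 8, 56283089 to 56357822, minus strand). IGF1R shares 843 exon bases with PGPEP1L on the opposite strand, and PGPEP1L had 0 or 1 count per library. IGFBP7 shares 251 exon bases with POLR2B, an RNA polymerase II subunit, also on the opposite strand. POLR2B differed by 0.01 between bFGF and OIM (edgeR adjusted p = 0.816). The sources do not say whether counting used the strand, so reads in the shared bases are uncertain.

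Of the non-coding transcripts counted, 2 lie within a member, both in introns of IGF1 on the opposite strand with 0 exon bases shared. LOC110260785 (chromosome 5, 81797890 to 81809218) was at 0.345, 0.420 and 0.740 CPM in control libraries, 1.42, 1.06 and 0.960 in OIM and 2.07, 2.19 and 1.69 in bFGF. Its groups lay in the order control, OIM, bFGF with no overlap, but only bFGF against control was called, at 1.98 (SE 0.32, edgeR adjusted p = 0.00497). In that comparison 12.4% of the 2220 non-coding transcripts tested were called. For bFGF against OIM the value was 0.79 (edgeR adjusted p = 0.168) and for OIM against control 1.19 (edgeR adjusted p = 0.490), where 0.045% of the non-coding transcripts were called.

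LOC110260784 (chromosome 5, 81879780 to 81890511) was at 0.760, 0.716 and 1.11 CPM in control libraries, 1.03, 1.29 and 0.995 in OIM and 2.03, 1.94 and 2.66 in bFGF. Control and OIM overlapped, and bFGF was above both. It was higher in bFGF than in control by 1.37 on the log2 scale (SE 0.25, edgeR adjusted p = 0.00756). Against OIM it was higher by 0.99 (SE 0.24, edgeR adjusted p = 0.0358), where 9.41% of non-coding transcripts were called, but 8 of the 9 fits without 1 library lost that call, with values from 0.84 to 1.12. It was kept without control replicate 3 only. Both transcripts rested on few counts. Without knowledge of the strand used in counting, their reads cannot be told apart from reads of the IGF1 introns around them.

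**Figure D4:**
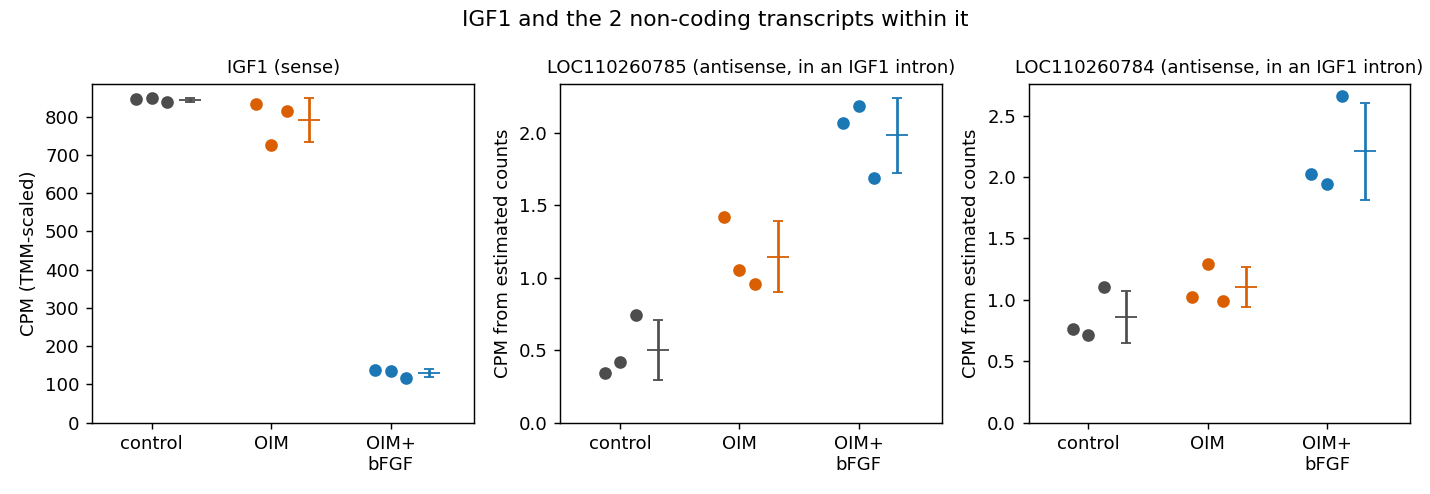
Level of IGF1 and of both antisense non-coding transcripts that lie in its introns, in CPM per library on linear axes from 0, with the mean ± SD beside the points (n = 3 per group). IGF1 drops to 117 to 138 CPM in bFGF, while LOC110260785 and LOC110260784 stand at 1.69 to 2.19 and 1.94 to 2.66 CPM there, above every control and OIM library.

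A single circular RNA was counted in a member gene. Its ends match exon 2 of IGF1R exactly (Sscrofa11.1 chromosome 1, 137638041 to 137638586, minus strand, 546 bases), so the junction that defines it joins the end of that exon to its own start. The junction is shown because it is the sequence by which reads of the circle differ from those of linear IGF1R. It was put together from the reference, 5′ to 3′ on the IGF1R strand, with the last 15 bases of the exon in lower case and its first 15 bases in capitals.
circular IGF1R exon 2 junction: accgctgccagaaaaTCTGCGGGCCGGGCA
The circle had 13, 11 and 9 counts in control, 10, 13 and 18 counts in OIM and 7, 10 and 7 counts in bFGF. Summed by group these were 0.189 CPM (exact Poisson 95% interval 0.130 to 0.265), 0.232 CPM (0.167 to 0.315) and 0.152 CPM (0.0975 to 0.227), which cover counting error only. The intervals overlapped, which is not a test of a difference, and no test between the groups was run on these counts. Per 1000 counts of IGF1R the circle gave 0.794, 0.843 and 0.854 counts in control, OIM and bFGF.

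The remaining genes of the pathway were read from 5 lists. In OIM against control 0 of the 59 genes tested in these lists were called by edgeR, and DESeq2 also called 0, while 16 had an unadjusted edgeR p under 0.05. At an adjusted p of at most 0.05 without the fold limit, 5 were higher and 5 lower there. Over all genes 2.35% were called in that comparison, and 13.6% passed without the fold limit. In bFGF against OIM, where 36.2% of all genes were called, each of the 5 lists held calls.

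Among the proteases that cut the binding proteins and the inhibitors of those proteases, 1 of 10 genes tested rose and 5 fell in bFGF against OIM, where 17.7% of all genes were higher and 18.4% lower. The median log2 fold change was -0.66, against -0.0029 over all genes. The 5 that fell included an inhibitor, STC2, named after its values were seen. It went from 29.2 ± 0.774 to 17.9 ± 0.364 CPM (-0.71, edgeR adjusted p = 5.07e-09). With library totals alone STC2 was at -0.49 and not called. HTRA3, a secreted serine protease, rose from 13.2 ± 1.24 to 63.8 ± 3.08 CPM (log2 fold change 2.27, edgeR adjusted p = 6.52e-16). Its relative HTRA1 fell from 1065 ± 74.7 to 344 ± 3.92 CPM (-1.63, edgeR adjusted p = 2.92e-17). PAPPA2, a protease of IGFBP5, fell by 2.17 from a low level of 0.781 CPM (edgeR adjusted p = 0.000399).

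ADAMTS1, a metalloprotease, went from 25.7 to 11.6 CPM (-1.15, edgeR adjusted p = 3.59e-08). PAPPA, the main protease of IGFBP4, was chosen after its values were seen. It was at 154 ± 9.86 CPM for control, 115 ± 3.66 for OIM and 116 ± 4.63 for bFGF. Its value was 0.01 in bFGF against OIM (edgeR adjusted p = 0.831) and -0.43 in OIM against control (edgeR adjusted p = 2.37e-06), under the fold limit. Scaling by library totals alone gave 1 higher and 3 lower.

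In the list of receptor substrates and adaptors, 1 of 14 genes tested rose and 5 fell in bFGF against OIM, with a median of -0.31. The total of these calls is close to the 36.2% called among all genes. By direction, 7.14% of the list was higher and 35.7% lower, against 17.7% and 18.4% of all genes. Scaling by library totals alone gave 2 higher and 4 lower. SOCS2, a feedback inhibitor of growth hormone and IGF signalling, rose from 2.79 ± 0.595 to 9.88 ± 1.09 CPM (1.82, edgeR adjusted p = 2.00e-09). IRS2, a main adaptor of both receptors, fell from 31.9 ± 0.445 to 8.31 ± 1.37 CPM (-1.94, edgeR adjusted p = 1.94e-13). GRB14 and SH2B2, adaptors that bind the insulin receptor, fell by 2.12 and 2.03 from 1.69 and 3.22 CPM (edgeR adjusted p = 7.94e-06 and 9.47e-07).

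The PI3K, AKT and mTOR list had 27 of 29 genes analysed here, and 1 rose and 5 fell. The median was -0.04, near that of all genes tested, and the share called was below the 36.2% of all genes. PIK3R1, the main regulatory subunit of PI3K, fell from 425 ± 8.07 to 134 ± 2.20 CPM (-1.67, edgeR adjusted p = 2.37e-18). The FOXO factors, which AKT restrains, made up most of the other calls. FOXO4 changed by -1.76 (edgeR adjusted p = 5.39e-12), FOXO3 by -1.36 (edgeR adjusted p = 3.27e-15) and FOXO1 by -1.02 (edgeR adjusted p = 4.18e-12). With library totals alone the list had 4 genes higher and 4 lower.

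Of the IGF mRNA binding proteins and proreceptor convertases, 2 of 6 genes tested rose and 1 fell, against 36.2% of all genes called, and with library totals alone 3 were higher and 0 lower. IGF2BP3, which binds IGF2 mRNA, rose from 2.18 to 5.15 CPM (1.24, edgeR adjusted p = 2.31e-06). FURIN, a convertase that cuts the receptor precursors, rose from 145 ± 5.80 to 260.0 ± 3.28 CPM (0.84, edgeR adjusted p = 2.07e-12). PCSK5, another convertase, changed by -0.71 (edgeR adjusted p = 4.32e-12), or by -0.49 and not called with library totals alone. In the short list of further carriers and receptors, 2 of 6 genes passed the filter, of which 1 fell and 1 was not called, where 36.2% of all genes were called. IGFALS, which stabilises the complex of IGF and IGFBP3, fell from 3.54 ± 0.394 to 1.79 ± 0.695 CPM (-0.98, edgeR adjusted p = 0.000636). IGF2R, which takes IGF2 up for breakdown, was named after its values were seen. It was at 247 ± 9.15 CPM in OIM and 269 ± 2.72 CPM in bFGF, with no overlap (0.12, edgeR adjusted p = 0.0124), under the fold limit.

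**Figure D5:**
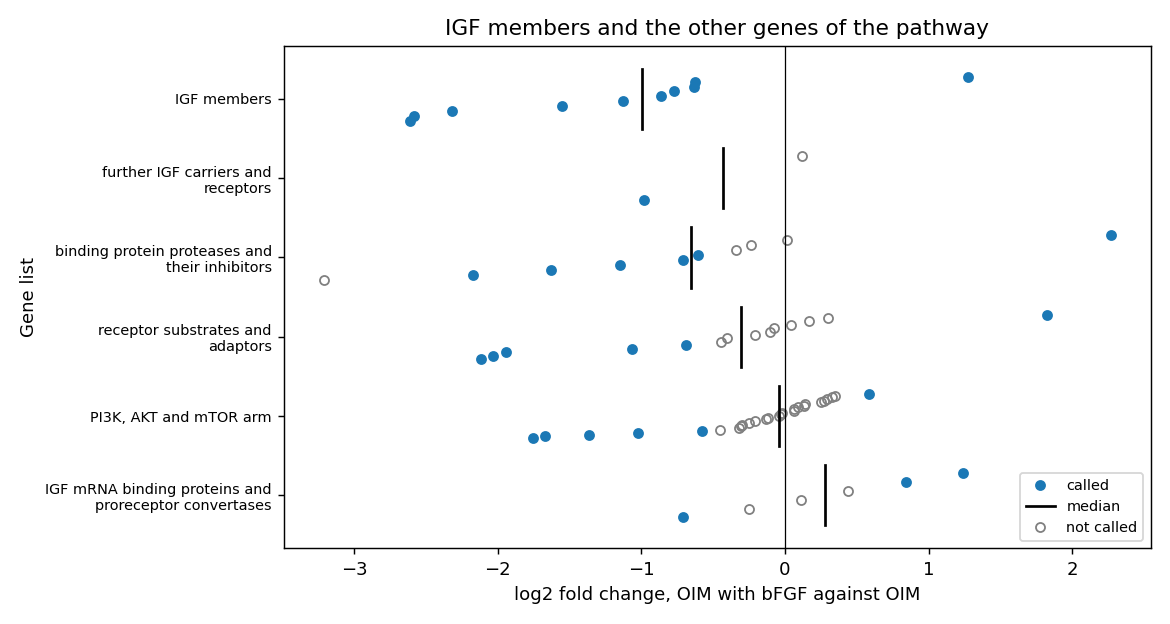
Log2 fold change from OIM to OIM with bFGF of the members and of the genes tested in 5 further lists. Filled points were called, open points were not, and the bar is the median of the list. The member median is -0.996, those of the lists lie between -0.66 and 0.28 and that of all genes tested at -0.0029. The open point at -3.21 is STC1, an inhibitor of PAPPA, which was singled out after its value was seen and had a mean of 0.0723 CPM in OIM. STC1 ran from 0 to 0.200 CPM over the OIM libraries and from 0 to 0.0186 CPM over the bFGF libraries.

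The shape of each profile over the 9 libraries was compared as the root mean square distance between log2 CPM values centred on their mean. Among 12514 genes, those nearest to IGFBP6 were CBX2 (distance 0.063), a Polycomb protein, FJX1 (0.071) and SGK1 (0.073), a kinase that like AKT acts downstream of PI3K. Nearest to IGF1 were ANXA8 (0.073), an annexin, C2H11orf96 (0.118) and PKDCC (0.120), a secreted kinase. Of the member pairs, IGF1R and IGFBP7 were closest (0.091), followed by IGF1R and IGFBP2 (0.113) and by IGF2 and IGFBP4 (0.122). These distances are descriptions over libraries in which the bFGF group differed from the others.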

How the data were processed

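RNA from PVICs in 3 groups of 3 libraries was sequenced, and groups were taken from the labels. The authors' deposited table holds whole-number gene counts (19535 genes), estimated counts of 9888 non-coding transcripts and counts of 6179 circRNAs, none normalized, plus 19 unnamed empty columns that were not used. The paper names Cutadapt and STAR for reads mapped to susScr11, while the submitters' processing notes list Trimmomatic, HISAT2, StringTie and Sscrofa11.1, and the labels give a stranded ribosomal RNA removal kit and 3 days where the paper differs. Which programs made the counts is not given in the sources used here.

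Gene counts were fitted whole with edgeR 4.0.16 (R 4.3.3): filterByExpr, TMM, 3 groups, quasi-likelihood test with 6 residual degrees of freedom, and Benjamini-Hochberg adjustment over 13662 genes. The test draws the spread of each gene towards that of all genes, so its p-values rest on more than these 6 degrees of freedom. Estimated counts were rounded to whole numbers and tested apart with the gene library sizes. SEs were derived from the log2 fold change and the F statistic (estimate over root F). With a common biological coefficient of variation of 0.0602, counting adds little to the spread except at low counts. On simulated counts for bFGF against OIM (13662 genes), 194 of 200 genes changed 2-fold were recovered, with 2 false calls. The changed genes were split evenly between higher and lower and were far fewer than the 36.2% called in the data. The simulation therefore does not test the calls, or the scaling, under a shift as wide as that between these groups. Exon lengths and positions came from RefSeq Sscrofa11.1. Non-coding transcripts were placed by transcript identifier (9014 of 9888 matched).

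The members and lists were chosen with earlier results of these data known. All members are named. From each list at most 4 called genes with the largest change from OIM to bFGF are named, and STC2 was named beyond that limit. Alternatives were DESeq2 1.42.0, other scalings and filters, a replicate block, no fold limit and fits without 1 library each. After the data were seen, 2 kinds were added, thinned libraries and the alternatives for both non-coding transcripts. APA, qPCR and staining were not analysed here.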

Additional observations from a re-analysis of the deposited data

How the results depend on the processing

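All 10 members kept their direction from OIM to bFGF and from control to bFGF under every alternative run, and members called stayed at 10 of 10 from OIM to bFGF in each fit without 1 library. Without the fold limit, 5 members were called in OIM against control, and over all genes 1853 were called there, 9203 in bFGF against OIM and 9590 in bFGF against control. Leaving out each library in turn gave 1 to 2 members called in OIM against control. INSR in OIM against control ranged from -0.0294 to 0.0233 over these fits, turning positive without OIM replicate 3 only, and was called in none of them. With library totals alone, the median log2 fold change of all genes moved to 0.22 in bFGF against OIM and to 0.21 in bFGF against control, and the share of calls that were higher went from 49.0% to 68.8% and from 48.5% to 68.1%. Members called were then 1 higher and 7 lower, and 1 higher and 6 lower, respectively. Same-numbered libraries of different groups did not deviate together (r from -0.0320 to 0.00350 over 9 pairs), so no pairing by number was detected. That does not exclude a shared culture or day. The replicate block left the members called at 1, 10 and 9 and all genes called at 309, 4917 and 5285. Among the members, IGFBP3 and IGFBP2 had the fewest counts.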
